A study of Mus musculus with 2 samples.

Results

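Mitochondrial carriers and the subunits of the mitochondrial protein import machinery were examined in spinal cord microglia of mice with an atopic diathesis and of control mice. The members were all non-control probes whose gene name in the scanner files begins with Slc25a, Timm or Tomm followed by a digit. This gave 66 genes and 91 probes, of 35014 genes and 55681 probes on the array: 44 Slc25a, 12 Timm and 10 Tomm genes. Values below are Agilent's processed signal, a fluorescence intensity from which the software has subtracted background. A gene is called measured if it had 1 or more probes that Agilent's software classed as well above background on each of the arrays.

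The groups are microglia sorted from atopic diathesis model mice, whose sample is titled as activated, and microglia sorted from control mice, whose sample is titled as normal. Each group is 1 array hybridised with Cy3-labelled cRNA from total RNA. How the diathesis was induced, the strain, sex and age of the mice, and whether animals were pooled are not given in the sources used here. With 1 array per group no difference can be tested, and every value describes these 2 samples.

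Most mitochondrial proteins are made in the cytosol and enter through the TOM complex of the outer membrane. Presequence-bearing precursors pass on through the TIM23 complex of the inner membrane, where a motor pulls them into the matrix. Precursors of the carriers are chaperoned across the intermembrane space by small Tim proteins and inserted by the TIM22 complex. The Slc25a carriers are themselves clients of that route. They exchange nucleotides, phosphate, carboxylates, amino acids and cofactors across the inner membrane, and in macrophages such exchange serves both oxidative phosphorylation and biosynthesis.

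The sorted cells carried microglial markers on both arrays. All 10 markers on the list, among them P2ry12, Tmem119 and Sall1, were measured and lay within 2-fold, with a summed signal of 73069 in atopic diathesis and 78518 in control microglia. None of 6 border macrophage and monocyte markers and none of 5 granulocyte and mast cell markers was above background on either array. Of 5 lymphocyte markers only Nkg7 was above background, on both arrays, at 63 in atopic diathesis and 121 in control. Above background on the atopic diathesis array were 3 of 6 astrocyte, 5 of 6 oligodendrocyte and 2 of 5 endothelial markers, and on the control array 2, 4 and 2 of them. Summed over each list, astrocyte markers gave 692 in atopic diathesis and 647 in control, oligodendrocyte markers 1028 in atopic diathesis and 1057 in control, and endothelial markers 267 in atopic diathesis and 598 in control. Within the astrocyte list Gja1 was at least 12.5-fold higher in atopic diathesis microglia and the log2 difference of Aldoc was -0.61. Within the endothelial list Pecam1 was at least 6.57-fold higher and Flt1 at least 16.1-fold lower, and the oligodendrocyte marker Cnp was 3.25-fold higher. Of 6 neuronal markers only Snap25 was above background, at 84015 in atopic diathesis and 82155 in control. The part of other cells in the results below was not tested.

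Well above background were 27.6% of all probes on the atopic diathesis array and 24.1% on the control array, and among the 91 member probes 50 in atopic diathesis and 39 in control, with 31 on both. The lowest signals so classed were at 19.9 in atopic diathesis and 19.8 in control. All log2 differences are atopic diathesis minus control, relative to the median of the 9217 measured genes unless a scaling alternative is named. Values under scaling by all probes or under quantile normalization were not centred. The median of all measured genes was -0.50 under the first and -0.17 under the second. Repeated spots of one probe gave a 95% interval of ±0.40 for the log2 difference of a single-spot probe. That interval covers spot error only, and not the variation between mice, cell sorts or RNA amplifications.

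The values rest on 60-base probes, and for several import genes the probes of one gene disagreed. Stretches are shown of a near-identical Tomm20 pair that went the same way, and of probes of Timm17b, Tomm40 and Timm8a1 that went opposite ways. The Tomm20 pair was designed to the same mm9 position, chr8:129458446-129458505 (minus strand), and its first 30 bases are given with the differing bases in capitals.
Tomm20 probe A_55_P2136338: gtgtttgtgaaaGctgCgcattaaaacctt
Tomm20 probe A_55_P2041017: gtgtttgtgaaaActgAgcattaaaacctt
Counted from the 5′ end of the first probe, the substitutions are G13A, C17A and, outside the stretch shown, A57G. For the other 3 genes the last 30 bases are shown, with a closing run of at least 3 A in capitals.
Timm17b probe A_55_P1970920: ccagcttcatacgtgtaacaattctctcac
Timm17b probe A_55_P2172299: tgtttaaagccagttttgaaatgtAAAAAA
Tomm40 probe A_55_P2161690: accgtggttctgacttcacagctgctgtca
Tomm40 probe A_66_P139295: tatggaaaaccgggacattttacagAAAAA
Timm8a1 probe A_55_P1952744: actaacaactgtttcaggtagaggtgcatg
Timm8a1 probe A_55_P1964302: ttcatcttaaatcgactggaacagacccag
In mm9 these lie at chrX:7483878-7483937 and chrX:7483939-7483999 (plus strand) for Timm17b, at chr7:20296115-20296174 and chr7:20286707-20286766 (minus strand) for Tomm40, and at chrX:131071864-131071923 and chrX:131072684-131072743 (minus strand) for Timm8a1. The probes of Timm17b are thus 1 base apart, those of Timm8a1 760 bases and those of Tomm40 9348 bases. Exonic or untranslated position was not looked up, as no annotation of that build was used.

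Of the 66 genes, 26 were measured on both arrays, 10 were detected in atopic diathesis microglia alone, 4 in control microglia alone, 2 on both arrays but by different probes, and 24 on neither. Among all genes of the array these classes held 26.3%, 8.05%, 4.14%, 0.266% and 61.2%. Among the 26, 8 were higher in atopic diathesis microglia and 6 lower by a factor of 2 or more, while 12 lay within 2-fold. Over all measured genes 17.3% were as much higher and 15.6% as much lower, 32.9% in all. If the 75th percentile over all probes served for scaling, 5 members were higher and 8 lower, with 989 higher and 2503 lower over all genes, and under quantile normalization 6 were higher and 6 lower, with 14.4% and 19.9% of all genes. The median of the members was 0.22, against 0.00 for all measured genes, and their median absolute difference was 1.19, against 0.60.

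Import genes held more of these differences than carriers. Of 14 measured Timm and Tomm genes 10 lay past 2-fold, 6 of them higher, and of 12 measured carriers 4 did, 2 of them higher. The carriers' share of 33.3% is close to the 32.9% of all genes. Shares past 2-fold differed with signal over the whole array: from the dimmest to the brightest quintile of mean signal 20.1%, 46.1%, 46.6%, 36.5% and 15.2% of all genes lay past 2-fold. In the same order 3 of 5, 3 of 5, 5 of 9, 2 of 3 and 1 of 4 members did. Measured genes with names of respiratory chain or ATP synthase subunits lay past 2-fold in 35 of 69 cases (50.7%) and mitochondrial ribosomal protein genes in 17 of 47 (36.2%). No test of these shares against each other was possible.

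**Figure D1:**
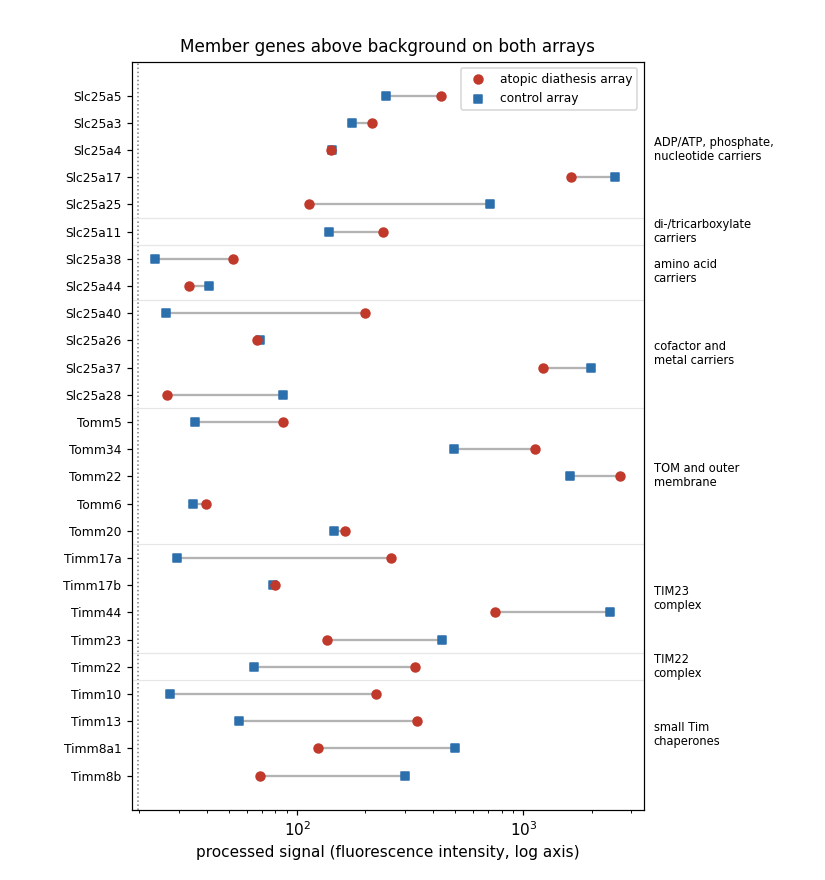
Processed signals of the 26 member genes measured on both arrays, on a log axis, grouped by role. Circles are the atopic diathesis array and squares the control array, both the mean over measured probes on the log scale, and the dotted line marks the lowest signal classed as well above background. Timm17a and Timm10 lie far to the right in atopic diathesis microglia, whereas Timm44, Timm8a1 and Slc25a25 lie to the right in control microglia.

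Among genes of the outer membrane entry gate, all 5 measured Tomm genes had positive differences. Under the uncentred scaling by the all-probe 75th percentile Tomm20 and Tomm6 were at -0.30 and -0.27, above the median of all genes (-0.50). Under quantile normalization they were at -0.02 and -0.28, beside a median of -0.17 for all genes, so Tomm6 lay below it. Tomm22, the central receptor of the TOM complex, read 2676 in atopic diathesis and 1611 in control microglia, a log2 difference of 0.77 ± 0.40 (95% repeat-spot interval). Tomm34, a cytosolic co-chaperone that hands precursors on, read 1119 in atopic diathesis and 493 in control, 2.32-fold higher in atopic diathesis microglia. Tomm5, a small subunit beside the pore, read 86.6 in atopic diathesis and 35.2 in control, 2.52-fold higher, and both its probes had positive differences, of 0.96 and 1.71. Tomm6, another small subunit, was near equal at 39.7 in atopic diathesis and 34.7 in control (0.23 ± 0.40). Of these, Tomm5 stayed past 2-fold in 6 of 11 other processing settings and Tomm34 in 10.

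Tomm20, the receptor for presequences, averaged 0.20 ± 0.23 over its 3 probes, which ranged from -0.69 to 0.83. The near-identical pair printed above read 293 in atopic diathesis and 169 in control microglia on one probe, and read 404 in atopic diathesis and 299 in control on the other. The third probe, with no such overlap, read 36.4 in atopic diathesis and 59.9 in control, so the sign for Tomm20 depends on the probe. Tomm7, a small subunit that affects TOM assembly, was detected in atopic diathesis microglia alone, at 227 in atopic diathesis against 20.1 in control, a bound of at least 11.6-fold higher (3.53 on the log2 scale, and 1.42 with uncorrected signals). Its other probe was near background on both arrays.

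The pore gene Tomm40 had no probe above background on both arrays. Probe A_55_P2161690 read 23.5 in atopic diathesis and 8.66 in control microglia, and probe A_66_P139295 read 5.19 in atopic diathesis and 277 in control. The receptor gene Tomm70a was split likewise, with 29.2 in atopic diathesis and 4.06 in control on one probe and 15.4 in atopic diathesis and 25.1 in control on the other. No direction can be given for either gene. Tomm40l and Tomm20l, relatives of Tomm40 and Tomm20, were on neither array above background.

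The genes of the TIM23 complex went in opposite directions. Timm17a, a subunit of the translocase, read 259 in atopic diathesis and 29.3 in control microglia, 9.05-fold higher and the largest positive difference among the measured members on this scale (3.18 ± 0.40). The value was 1.77 with normexp background correction and 1.60 with uncorrected signals. With its second probe included it was 1.91, when Timm10 was larger at 3.14. Its second probe, detected in atopic diathesis microglia alone, read 37.4 in atopic diathesis and 19.0 in control, in the same direction. That second probe and the measured probe of Timm23 each share at least 25 bases with a probe of another name. Timm23, the channel itself, read 135 in atopic diathesis and 438 in control, 3.18-fold lower (-1.67, and -1.27 with uncorrected signals). Its second probe, at 16.2 in atopic diathesis and 29.6 in control, also had its lower value in atopic diathesis microglia. Timm44, which tethers the import motor to the channel, read 746 in atopic diathesis and 2417 in control, 3.17-fold lower (-1.66, also with uncorrected signals).

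Timm17b, which can take the place of Timm17a in the complex, had a mean difference of 0.07 over probes of opposite sign. One probe read 84.7 in atopic diathesis and 35.0 in control microglia, and the other 74.8 in atopic diathesis and 173 in control, with log2 differences of 1.31 and -1.18. Of these the probe that ends in A shares at least 25 bases with a probe of another name. Timm50, the receptor of the complex, was detected in atopic diathesis microglia alone, at 27.2 in atopic diathesis against 21.0 in control on its brighter probe, a bound of at least 1.32-fold higher. The measured subunits of the complex therefore comprised 1 higher, 2 lower and 1 within 2-fold.

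The 5 measured genes of the TIM22 complex and the small Tim chaperones differed more than 2-fold, although Timm8a1 did not once its second probe entered. Timm22, the core of the TIM22 insertion complex, read 333 in atopic diathesis and 64.2 in control microglia, 5.30-fold higher (2.41 ± 0.40, and 1.46 with uncorrected signals). Its second probe was not above background on either array. Of the small Tim chaperones, Timm10 read 222 in atopic diathesis and 27.4 in control, 8.27-fold higher (3.05, and 1.40 with uncorrected signals), and its second probe had 207 in atopic diathesis and 17.4 in control. Timm13 read 339 in atopic diathesis and 55.2 in control, 6.28-fold higher (2.65, and 1.54 with uncorrected signals). The other pair of measured chaperones was lower. Timm8b read 68.5 in atopic diathesis and 300 in control, 4.29-fold lower (-2.10, and -1.30 with uncorrected signals). Timm8a1 read 123 in atopic diathesis and 496 in control, 3.93-fold lower (-1.98, and -1.49 with uncorrected signals).

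In the intermembrane space Timm10 assembles with Timm9, and Timm13 with Timm8 proteins. Both probes of Timm9 were near background on both arrays, the brighter at 7.72 in atopic diathesis and 9.31 in control microglia, so the pair of partners could not be compared. Timm13 and its Timm8 partners, all measured, had differences of opposite sign. For Timm8a1 this rests on 1 probe, A_55_P1952744. The other, A_55_P1964302, read 21.3 in atopic diathesis and 3.97 in control, and with it included the mean became 0.06. Timm8a2 was on neither array above background.

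**Figure D2:**
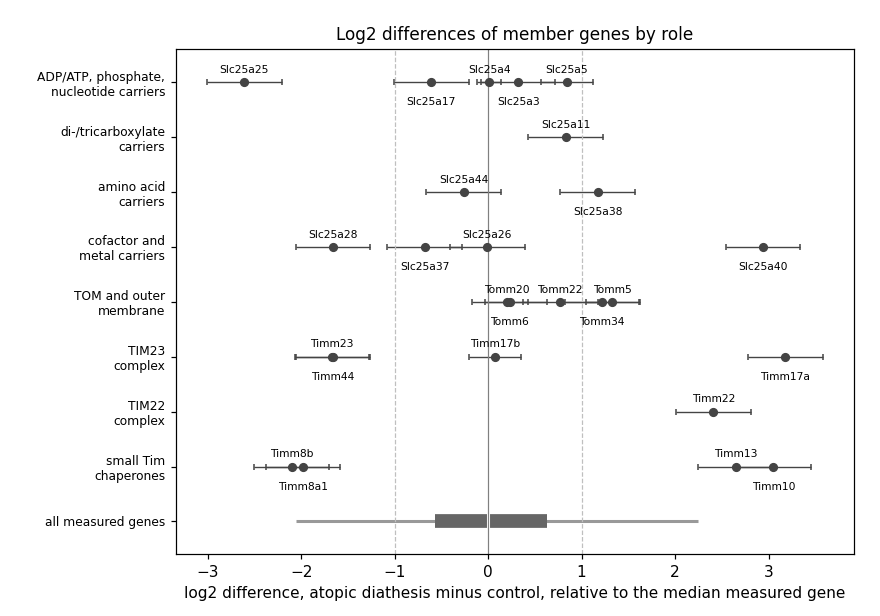
Log2 differences of the 26 measured member genes by role, atopic diathesis minus control, relative to the median measured gene. Bars are 95% repeat-spot intervals, dashed lines mark 2-fold, and the lowest row gives the range between percentiles 25 and 75 (thick, -0.57 to 0.63) and between percentiles 5 and 95 (thin, -2.06 to 2.25) of all 9217 measured genes. The small Tim chaperones and the TIM23 complex hold members on both outer sides. The TOM genes lie right of 0, although Tomm6 lay below the median gene under quantile normalization and with no background filter.

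The ADP/ATP translocases, the most used carriers of oxidative phosphorylation, differed by less than 2-fold. Slc25a4 offered the firmest value, since its probe is printed 10 times per array. Its spots ran from 129 over a median of 141 to 160 in atopic diathesis microglia (10 spots), and from 130 over 141 to 157 in control microglia (9 usable spots). The ranges overlap almost fully, and the log2 difference was 0.01 ± 0.13. Under the uncentred all-probe scaling it was -0.49, where the median of all measured genes was -0.50. Slc25a5, its relative, read 431 in atopic diathesis and 246 in control, and its probes, at 0.62 and 1.07, had the same sign and a mean of 0.84 ± 0.28. The phosphate carrier Slc25a3 read 214 in atopic diathesis and 175 in control (0.32 ± 0.40), and with probes detected on either array included its mean was 1.23.

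Among carriers of this group measured on both arrays, the one past 2-fold was Slc25a25, an exchanger of ATP-Mg for phosphate that is activated by calcium. It read 113 in atopic diathesis and 709 in control microglia, 6.11-fold lower and the lowest difference among the measured members (-2.61 ± 0.40, and -1.92 with uncorrected signals). Its second probe, 155 bases away, read 4.67 in atopic diathesis and 104 in control, in the same direction. Slc25a17, a peroxisomal relative that carries cofactors and nucleotides, read 1628 in atopic diathesis and 2541 in control (-0.61 ± 0.40).

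For carboxylates and amino acids few carriers were measured. The oxoglutarate carrier Slc25a11, part of the malate-aspartate shuttle, read 239 in atopic diathesis and 138 in control microglia, a difference of 0.83 ± 0.40. Slc25a38, which imports glycine for haem synthesis, read 52.1 in atopic diathesis and 23.6 in control, 2.25-fold higher, with the control value just above background. It stayed past 2-fold in 5 of 11 other settings. Slc25a44, a carrier of branched-chain amino acids, read 33.4 in atopic diathesis and 40.9 in control on its measured probe (-0.26 ± 0.40).

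Carriers of cofactors and metals held 1 higher and 1 lower member past 2-fold. Slc25a40, a relative of the glutathione importer Slc25a39, read 199 in atopic diathesis and 26.4 in control microglia, 7.70-fold higher (2.94 ± 0.40, and 1.48 with uncorrected signals), while its second probe was at background on both arrays. Slc25a39 itself was not above background, at 4.85 in atopic diathesis and 4.50 in control. The mitoferrins, which bring iron into mitochondria for haem and iron-sulfur clusters, both had negative differences. Slc25a28 read 26.7 in atopic diathesis and 86.4 in control, 3.17-fold lower, and Slc25a37, which read 1218 in atopic diathesis and 1994 in control, was within 2-fold at -0.68 ± 0.40. Slc25a28 stayed past 2-fold in 9 of 11 other settings, and was at -0.66 with normexp and -0.56 with uncorrected signals. Slc25a26, the importer of S-adenosylmethionine, was level at 66.4 in atopic diathesis and 68.2 in control.

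The genes detected in atopic diathesis microglia alone make 10 of 66, where 8.05% of all genes of the array fell in that class. A bound of 2-fold or more was reached by 7 of them, against 59.2% of all genes in that class. The highest belonged to Slc25a46, an outer membrane protein of mitochondrial shape, at 712 in atopic diathesis and 8.95 in control microglia, at least 36.8-fold higher. On the log2 scale this bound of 5.20 became 3.29 with normexp background correction and 2.96 with uncorrected signals. Its other probe was near background on both arrays. Slc25a14, an uncoupling protein relative, read 321 in atopic diathesis and 5.11 in control, at least 16.6-fold higher, a bound of 4.05 on the log2 scale that became 2.17 with normexp and 1.89 with uncorrected signals. Of the pyrimidine nucleotide carriers, Slc25a33 read 103 in atopic diathesis and 4.46 in control, at least 5.34-fold higher, and Slc25a36 read 100 in atopic diathesis and 11.7 in control, at least 5.20-fold higher. With uncorrected signals their log2 bounds of 2.42 and 2.38 became 0.89 and 0.82, under 2-fold. These carriers are close relatives, and Slc25a33 was above background in atopic diathesis microglia on both its probes.

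Further down, the glutamate carrier Slc25a22 read 71.1 in atopic diathesis and 10.9 in control (at least 3.68-fold higher). Its log2 bound of 1.88 became 0.85 with normexp and 0.68 with uncorrected signals, under 2-fold. Below 2-fold were the bounds of Slc25a23, a further ATP-Mg carrier (33.4 in atopic diathesis and 16.1 in control), and of Slc25a45 (23.2 in atopic diathesis and 8.18 in control). The 4 genes detected in control microglia alone, where 4.14% of all genes fell, were dim. Slc25a18, the other glutamate carrier, read 4.06 in atopic diathesis and 46.7 in control microglia, at least 2.30-fold lower. It was the only one of the 4 with a bound of 2-fold, against 51.1% of all genes in that class. Its log2 bound of -1.20 became -0.46 with normexp and -0.33 with uncorrected signals, under 2-fold. The citrate carrier Slc25a1 (4.51 in atopic diathesis and 38.2 in control), Slc25a30 (5.22 in atopic diathesis and 28.8 in control) and the germline ADP/ATP translocase Slc25a31 (6.58 in atopic diathesis and 24.4 in control) had bounds of 1.88-, 1.42- and 1.20-fold. Under quantile normalization, where the median of all genes was -0.17, the log2 bounds of Slc25a1 and Slc25a30 were -1.39 and -1.02.

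**Figure D3:**
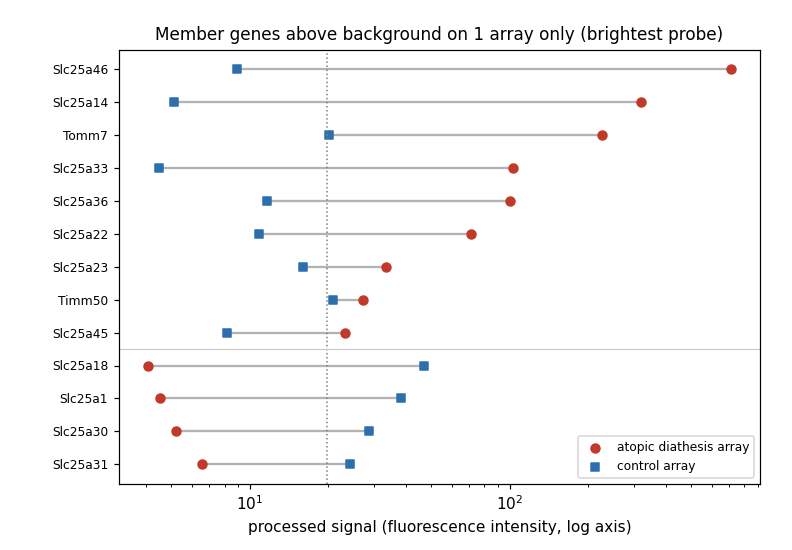
Processed signals of 13 of the 14 member genes above background on 1 array only, at the brightest probe, on a log axis. The dotted line marks the lowest signal classed as well above background. The upper 9 were detected in atopic diathesis microglia alone and reach 712, the lower 4 in control microglia alone and reach 46.7.

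The 24 genes on neither array above background were 20 carriers, Timm9, Timm8a2, Tomm20l and Tomm40l. Among the carriers are Slc25a12 and Slc25a13, the aspartate-glutamate exchangers, at 4.64 in atopic diathesis and 4.48 in control and at 3.96 in atopic diathesis and 11.3 in control, and Slc25a20, the acylcarnitine carrier, at 14.1 in atopic diathesis and 4.81 in control. Signals this low give no order between the arrays. Of the 24 member genes with more than 1 probe, 15 had at least 2 probes above background on an array, and in 6 of these the raw signals of the probes went in opposite directions.

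**Figure D4:**
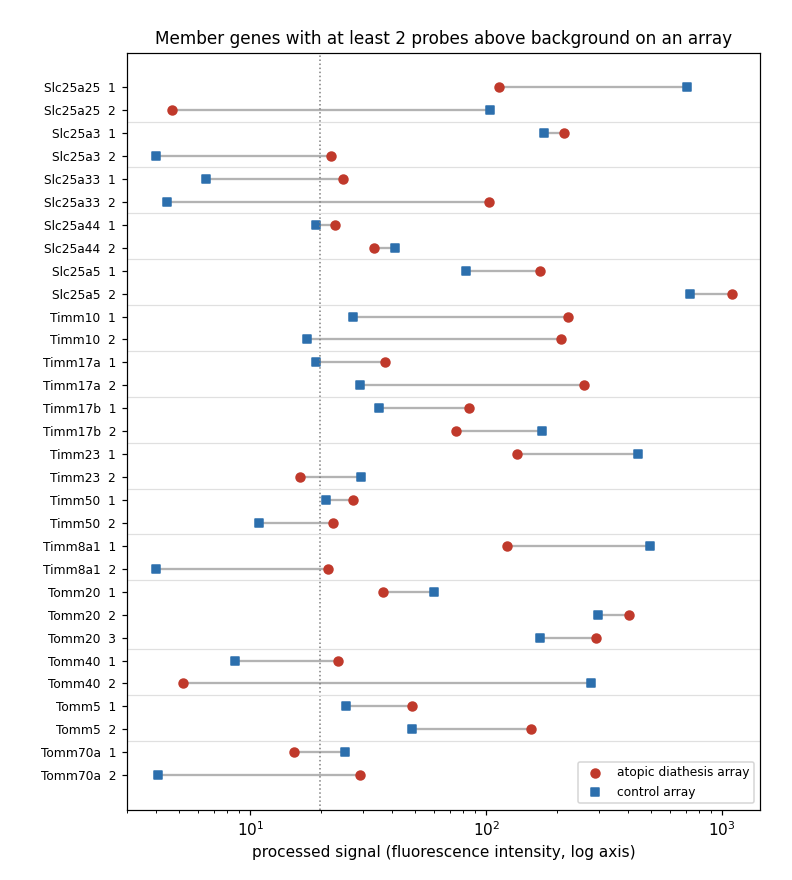
Processed signals of the 31 probes of 15 member genes with at least 2 probes above background on an array, 1 line per probe, on a log axis, with probes of one gene together. For Timm17b, Tomm40, Tomm70a, Timm8a1, Tomm20 and Slc25a44 the order of the arrays differs between probes, and for the other 9 genes it is the same.

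Several import genes carry older names in the scanner files and fall outside the name rule. Timm21, a TIM23 subunit listed as 1700034H14Rik, read 617 in atopic diathesis and 18 in control microglia, at least 31.9-fold higher. Timm29, a TIM22 subunit listed as 1810026J23Rik, read 47.3 in atopic diathesis and 4.79 in control, at least 2.45-fold higher. Timm10b, listed as Fxc1, gave 251 in atopic diathesis and 1253 in control on its 1 probe above background on both arrays (-2.29 ± 0.40), but its RefSeq-matched probes, at 235 in atopic diathesis and 4.28 in control and at 50.3 in atopic diathesis and 7.45 in control, go the other way. The NAD carrier Slc25a51, listed as Mcart1, read 205 in atopic diathesis and 289 in control (-0.46 ± 0.40).

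Genes that work with these complexes were taken from a fixed list of 33. Neither their values nor those of the genes under older names were followed under the other processing settings. Of the 20 measured, 7 were at least 2-fold higher and 1 was lower in atopic diathesis microglia, with a median of 0.31. The share higher was 35%, where it was 17.3% for all genes, and the share lower was 5%, where it was 15.6% for all genes. In the import motor, Dnajc15 read 897 in atopic diathesis and 57.5 in control microglia (16.0-fold higher), the mitochondrial Hsp70 gene Hspa9 read 1094 in atopic diathesis and 171 in control (6.55-fold) and Pam16 read 98.7 in atopic diathesis and 43.9 in control (2.30-fold). Dnajc19, the J-protein most like Dnajc15, was near level, at 4146 in atopic diathesis and 5226 in control (-0.30).

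In outer membrane assembly, Mtx2 read 1251 in atopic diathesis and 108 in control microglia, 11.9-fold higher. Samm50, the core of the sorting and assembly machinery, was above background in control microglia only, at 7.08 in atopic diathesis against 618 in control, at least 30.4-fold lower. Oxa1l, the inner membrane insertase, read 648 in atopic diathesis and 96.1 in control (6.90-fold higher). Among channels, Vdac3 read 312 in atopic diathesis and 74.0 in control (4.31-fold higher), whereas Vdac1 (3493 in atopic diathesis and 4336 in control) and Vdac2 (794 in atopic diathesis and 1136 in control) lay within 2-fold. Of the uncoupling proteins, Ucp3 read 363 in atopic diathesis and 163 in control (2.28-fold higher) and Ucp2 654 in atopic diathesis and 524 in control (0.35).

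Of the peptidases that trim imported precursors, Immp1l was the 1 lower partner among those measured on both arrays, at 23.4 in atopic diathesis and 204 in control microglia (8.54-fold lower). Its atopic diathesis value was near the lowest signal classed as well above background there (19.9), and 1 of its 2 probes was measured. Pmpca, a subunit of the processing peptidase, read 327 in atopic diathesis and 570 in control (-0.77). Pmpcb, its catalytic partner, was detected in atopic diathesis microglia alone, at 69.9 in atopic diathesis against 16.0 in control, at least 3.62-fold higher. The disulfide relay genes Chchd4 and Gfer, which fold the small Tim proteins after entry, were on neither array above background.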

How the data were processed

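Per the labels, total RNA of sorted microglia was labelled with Cy3 and 1 array per group was hybridised. The deposited scanner files give intensity per spot, made with Agilent Feature Extraction (version 10.7.1.1 per the file headers, 9.5.1.1 per the submitters' processing notes), with probe positions on mm9. The deposited series table gives intensity per probe, and its columns have equal sorted values, as quantile normalization gives; that step is not stated. The software's 0 or 1 flags, per the file headers, were used as given.

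Control spots (3671) and outlier spots (122 in atopic diathesis, 136 in control) were left out, 1 of the outlier spots on a member probe, and spots of a probe were averaged on the log2 scale. No spot was saturated. Signals were scaled by the 75th percentile of probes above background on both arrays (725 in atopic diathesis and 785 in control), and differences are stated against the median of measured genes, which lay at 0.08 on that scale and at -0.50 when scaled by all probes. A gene's value is the mean over probes above background on both arrays. A gene above background on 1 array has a bound: its brightest probe's signal divided by that probe's value on the dim array, or by the lowest well-above-background signal there if that is greater. Levels of different probes are not comparable with each other.

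Names of other genes came from RefSeq (GRCm38.p6) by accession for 27235 probes, 82 of 91 member probes included. Repeat-spot error came from 101 probes printed 10 times with at least 5 usable spots, with an SD on the log2 scale of 0.14 in atopic diathesis and 0.15 in control. The number of arrays limits the precision. Genes named are all measured members past 2-fold, the members above background on 1 array, the member of highest signal in each role group, members with discordant probes, and partners past 2-fold, with further members and partners named after their values were seen. One of the members above background on the atopic diathesis array alone is not reported here. Members and lists were chosen with earlier results of these data known. Calculations used Python 3.11.15, R 4.3.3 and limma 3.58.1, and were tested on simulated data.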

Additional observations from a re-analysis of the deposited data

How the results depend on the processing

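No paired analysis was possible because each group is 1 array. Processing alternatives numbered 11, and 1 more was chosen after seeing the data. Over the 11, 152 of 154 values of the 14 members past 2-fold kept their sign, and 9 of the 14 stayed past 2-fold under all: Slc25a25, Slc25a40, Timm10, Timm13, Timm17a, Timm22, Timm23, Timm44 and Timm8b. The settings are not separate trials. Kept outlier spots left all 14 values as they were, and the brightest-probe setting dropped a measured probe for Tomm5 alone. The deposited table nearly repeated quantile normalization. Timm8a1 reversed to 0.06 when probes detected on either array entered and to 0.16 with no background filter. The count higher (8) became 5 under scaling by the all-probe 75th percentile, with a median of -0.28, beside -0.50 for all genes. That scale was not centred, and the median member lay above the median gene there too. With probes detected on either array the counts were 16 higher and 10 lower and the median 0.62, with 29% and 21.8% of all genes, and with no filter 25 and 11, with 16% and 8.75% of all genes, since more genes entered. With signals at least 2 times the lowest well above background, the alternative added later, 4 were higher and 6 lower among 19, with 15.8% and 15% of all genes. Of the genes higher on the main scale, Slc25a38, Slc25a40, Timm10 and Timm17a dropped out there. Their control signals of 23.6, 26.4, 27.4 and 29.3 were near the lowest so classed (19.8), although the last 3 genes stayed past 2-fold under the 11 alternatives. Bounds of at least 2-fold (8 genes) numbered 4 with normexp background correction and 3 with uncorrected signals, which keep background in the dim signal. Quantile normalization and the deposited table each gave 6 higher, 6 lower and a median of -0.13, beside -0.17 for all genes. Normexp and uncorrected signals gave 6 higher and 5 lower. Loess, the brightest probe and kept outlier spots left 8 higher and 6 or 7 lower. Low signal is a limit too: 24 of 66 members were on neither array above background.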

Other observations

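The RefSeq table (GRCm38.p6, 250 bases before to 50 after the start) held promoters of 54 of the 66 genes. Core motifs of 3 factors tied to mitochondrial genes were searched on both strands, and none of them contains another. The GABP core CCGGAAG was in 13 of 54 (24.1%), against 9.93% of the 27025 genes in the table and 20.6% of the 4831 measured genes with an entry. The NRF1 stretch GCGCATG was in 2 (3.70%), against 4.41% and 7.85%, and the YY1 stretch AAGATGG in 5 (9.26%), against 7.28% and 9.29%. Members past 2-fold with the GABP core were Timm10, Tomm34 and Slc25a38, higher in atopic diathesis microglia, and Timm23, Timm8b and Slc25a25, lower there. A match is a description of letters, not a binding site.

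Timmdc1, an assembly factor named like the import genes but outside the name rule, had signals of 93936 in atopic diathesis and 89068 in control microglia on its measured probe. Among member probes, 3 share a run of at least 25 bases with a probe of another name: the Timm17b probe that ends in A, the dimmer Timm17a probe and the measured Timm23 probe.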
